A study of Mus musculus with 24 samples.

Results

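Collagen genes were examined in kidney RNA of mice with a deletion of Pex5, the cytosolic receptor that carries most enzymes into peroxisomes. A gene was taken as a collagen chain if its symbol was Col followed by a number, the letter a and a number, apart from Col11a2, which was left out, and if it had a count in at least 1 of 24 kidneys. This gave 43 genes of 55335 in the files, of which 29671 had a count. They were sorted into 8 basement membrane collagens (the 6 type IV chains with Col15a1 and Col18a1), 10 fibrillar collagens and 25 other collagens.

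Whole kidneys came from 24 mice on the C57BL/6J background, 6 in each of 4 groups. The cKOm and cKOf mice were Pex5lox/lox/Pax8-rtTA/LC1 males and females, in which the Pax8 promoter drives an inducible Cre recombinase in the renal tubule. The Ctrlm and Ctrlf mice were their littermates, with the genotype given as Pex5lox/lox alone. All 4 groups had received doxycycline (DOX) for 2 weeks from 8 weeks of age, and kidneys were taken 4 weeks after it ended. Many collagens are made by fibroblasts, podocytes and vessel cells rather than by tubule cells. The RNA was that of the whole organ, so fewer cells of a type and less RNA per cell cannot be told apart.

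Collagens are trimers of chains that are hydroxylated and folded in the endoplasmic reticulum before secretion. Type IV collagen forms the sheet-like network of basement membranes. In the kidney, Col4a1 and Col4a2 join in the membranes of tubules and vessels, whereas Col4a3, Col4a4 and Col4a5 join in the mature membrane of the glomerular filter, where mutations cause Alport syndrome. Fibrillar collagens such as types I, III and V build the interstitial fibers that accumulate in kidney fibrosis, and type VI forms beaded filaments around cells.

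The reads counted on genes numbered 19376152 to 28470831 per kidney, and 3 counts, taken as the floor of detection, stood for 0.105 to 0.155 CPM (counts set to a shared library size). The floors cover counting error only, whereas p values, SE and 95% intervals include the spread between mice. Pex5 itself was 54.3 CPM in Ctrlm and 43.7 in cKOm kidneys without overlap (edgeR adjusted p = 0.0219), and 50.3 in Ctrlf and 43.6 in cKOf kidneys with overlap (adjusted p = 0.177). These counts are of the whole gene. The authors found PEX5 protein nearly gone in cKOm kidneys, but only reduced in cKOf kidneys. They also saw residual full-length Pex5 mRNA in cKOf kidneys and proposed incomplete excision there. By electron microscopy, proximal tubules of both had almost no peroxisomes. The summed level of 10 hepatocyte markers was 429 to 940 CPM in Ctrlm replicates 1 to 4 and 453 CPM in cKOm replicate 4, but 48.7 to 122 CPM in the other 19 kidneys. Some results for called collagens are therefore also given without those 5 kidneys. Proximal tubule markers summed to 8011 to 8977 CPM in Ctrlm and 6863 to 7536 in cKOm kidneys, without overlap. In Ctrlf and cKOf kidneys they summed to 8359 to 9371 and 7701 to 8927 CPM. Thick limb and distal markers summed to 4381 to 6321 CPM in Ctrlm and 5991 to 6797 in cKOm kidneys. In Ctrlf and cKOf kidneys these were 6816 to 7592 and 6563 to 7508 CPM. The part of tubule content in the collagen differences was not tested. In cKOm kidneys Slc34a1, Lrp2 and Csf1r were lower and Slc12a1 higher, with no call among 7 endothelial, 6 urothelial, 5 adipocyte and 4 mesothelial markers, although summed adipocyte markers reached 249 CPM in 1 Ctrlf kidney. A gene was tested if it reached 1 CPM in at least 1 kidney, which held for 16092 genes and for 34 collagens (all 8 basement membrane, 8 fibrillar and 18 other collagens). The other 9 (Col2a1, Col11a1, Col8a2, Col9a1, Col9a2, Col9a3, Col10a1, Col22a1 and Col28a1) never rose above 0.73 CPM in any kidney, and Col10a1 had 1 read in all.

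A trio of genes fell furthest in cKOm kidneys, and the stretch of DNA just before each is printed for that reason. They are Col6a6 and Col6a4, which encode alternative long chains of type VI collagen, and Col19a1, which encodes a collagen that decorates basement membranes and fibers. Their levels did not go together in every kidney. Ctrlm replicate 6 had the highest Col6a6 of its group (13.6 CPM) but the lowest Col19a1 (1.09) and Col6a4 (0.476). Each stretch is RefSeq sequence of GRCm38.p6, 5' to 3' on the minus strand, and ends where the annotated gene begins. That of Col6a4 overlaps 1 annotated exon. Capitals mark the GC box GGGCGG on either strand. The stretches lie at chr9:105828161-105828335 for Col6a6, chr9:106096784-106096941 for Col6a4 and chr1:24587473-24587687 for Col19a1.
Col6a6: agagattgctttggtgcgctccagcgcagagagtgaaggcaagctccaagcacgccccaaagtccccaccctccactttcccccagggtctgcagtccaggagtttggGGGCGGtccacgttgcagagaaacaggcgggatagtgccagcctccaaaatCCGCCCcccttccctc
Col6a4: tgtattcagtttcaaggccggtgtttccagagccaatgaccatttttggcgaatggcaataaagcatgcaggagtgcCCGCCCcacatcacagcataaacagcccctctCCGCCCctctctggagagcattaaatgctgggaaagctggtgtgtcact
Col19a1: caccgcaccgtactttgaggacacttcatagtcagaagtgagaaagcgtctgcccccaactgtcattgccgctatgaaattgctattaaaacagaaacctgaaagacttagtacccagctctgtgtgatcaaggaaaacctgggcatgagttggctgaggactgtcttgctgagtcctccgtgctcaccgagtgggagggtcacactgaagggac
Col6a6 and Col6a4 each held 2 GC boxes and Col19a1 held none. Of the 250 bases before all 32851 RefSeq starts, 32.7% held a GC box, 12.4% a TATAAA motif, 16.1% an AGAACA motif (read by androgen and glucocorticoid receptors) and 14% an AGGTCA motif (read by many nuclear receptors), each on either strand. None of the latter 3 was found in the printed stretches. Across the 37 windows of 34 collagens with a RefSeq entry, 56.8% held a GC box, 10.8% TATAAA, 5.41% AGAACA and 21.6% AGGTCA. These are descriptions of letters and not of bound sites.

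Per transcript length, basement membrane collagens dominated. Levels are given as RPKM, the CPM per kilobase of transcript, with the union of annotated exons as the length. The summed collagen level was 178 ± 20.5 RPKM in Ctrlm and 174 ± 10.8 in cKOm kidneys (mean ± SD, n = 6), of which basement membrane collagens made up 74.9% and 75.0%. For females the sum was 190 ± 28.4 RPKM in Ctrlf and 188 ± 10.3 in cKOf kidneys, with 72.4% and 73.0% from that class. Fibrillar collagens supplied 12.3% of the sum in Ctrlm and 13.4% in cKOm kidneys, and other collagens 12.8% and 11.6%. The share of type IV chains alone was 60.9% in Ctrlm and 58.4% in cKOm kidneys.

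The most abundant chain was Col4a3, at a mean of 32.8 RPKM over the 24 kidneys, and it exceeded the next gene in 23 of them. Col4a2 (24.2 RPKM), Col4a1 (23.6), Col18a1 (20.9), which gives rise to endostatin, and Col4a4 (20.2) came next, and their order did not hold in every kidney, since Col4a2 exceeded Col4a1 in 15 of 24 and Col18a1 exceeded Col4a4 in 13. With the longest transcript as the length, Col4a1 and Col18a1 both moved ahead of Col4a2. A gap followed, because Col4a4 exceeded Col27a1, the sixth gene, in all 24 kidneys. Col27a1 (8.09 RPKM), a fibrillar collagen of cartilage, Col15a1 (7.36), a basement membrane collagen of vessels, and Col14a1 (7.10), a collagen bound to fibrils, were close to each other. Col6a1 (5.74) and Col4a5 (5.0) completed the first 10. The fibrillar chains best known from fibrosis were lower, with Col3a1 at 3.51, Col1a2 at 3.19 and Col1a1 at 2.90 RPKM, and Col4a6, the sixth type IV chain, was at 0.59 RPKM.

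**Figure D1:**
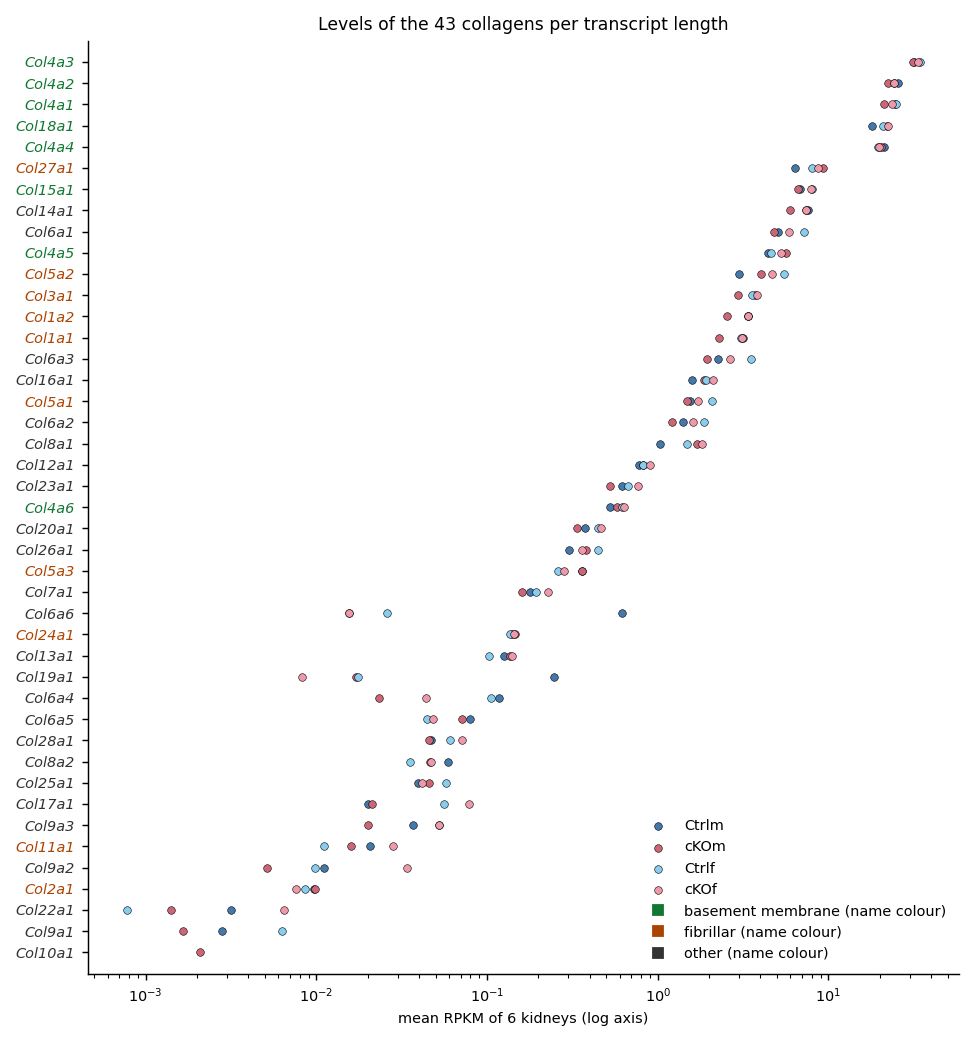
Level of each of the 43 collagens, with 1 point for the mean RPKM of 6 kidneys in each group on a log axis and genes ordered by their mean over all kidneys. Group means of 0 are not drawn. The group means of Col4a3 lie near 32.8 RPKM, while Col6a6 and Col19a1 show 1 group, Ctrlm, far to the right of the others.

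The first comparison asked which collagens changed with loss of Pex5 in males. Of the 34 tested collagens 5 passed an adjusted p of 0.05, beside 9.05% of all tested genes. Col8a1 and Col4a5 were higher in cKOm (4.14% of all genes were called higher) and Col6a6, Col19a1 and Col6a4 were lower (4.9% were called lower). The 3 lower genes reached the filter of 1 CPM only in control kidneys, Col6a6 and Col19a1 only in Ctrlm. They were thus tested only because of groups where they were high. Their male calls were kept with no filter on low counts. The median log2 fold change was -0.04 for basement membrane, -0.04 for fibrillar and -0.15 for other collagens, beside 0.01 for all tested genes. Without overlap between 6 cKOm and 6 Ctrlm kidneys stood 5 collagens, namely Col6a6, Col19a1, Col6a4, Col8a1 and Col1a2, beside 7.38% of all genes. The number called was 8 without Ctrlf replicate 1, which adds Col1a2, Col27a1 and Col5a2. It was 2, Col6a6 and Col19a1, without the 5 kidneys rich in hepatocyte markers. That fit kept only replicates 5 and 6 of Ctrlm, so a lost call there may reflect fewer mice.

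Col6a6 showed the largest change. In Ctrlm kidneys it ranged from 1.58 to 13.6 CPM with a median of 4.68, and in cKOm kidneys from 0 to 0.274 CPM with a median of 0.149. Over 6 kidneys these levels rest on 740 reads in Ctrlm and 18 in cKOm. In females it ranged from 0.0431 to 0.574 CPM in Ctrlf and from 0 to 0.225 in cKOf kidneys, on 32 and 18 reads. Thus every Ctrlm kidney was above every other kidney of the study, and the other 3 groups overlapped near the floor. The log2 fold change in males was -5.30 ± 0.60 (SE, edgeR adjusted p = 9.4e-07) and in females -0.69 ± 0.68 (adjusted p = 0.705). The difference between the sexes was -4.61 ± 0.95 (interaction, adjusted p = 0.00542), and this call was lost with limma-voom (adjusted p = 0.107). Ctrlm replicate 6 was the highest, and the male adjusted p was at most 7.2e-06 with any 1 kidney left out.

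Col19a1, at a lower level, was likewise highest in Ctrlm. It ranged from 1.09 to 2.30 CPM in Ctrlm (median 1.68, 223 reads in all) and from 0 to 0.301 CPM in cKOm kidneys (median 0.0935, 15 reads). In Ctrlf kidneys it lay between 0 and 0.429 CPM on 16 reads and in cKOf kidneys between 0 and 0.195 CPM on 7 reads. Every Ctrlm kidney was above every other kidney. The log2 fold change was -3.82 ± 0.68 in males (SE, edgeR adjusted p = 0.000523) and -1.01 ± 0.87 in females (adjusted p = 0.654), and the interaction did not pass (-2.82 ± 1.23, adjusted p = 0.306).

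Hepatocyte markers were high in 4 of 6 Ctrlm kidneys, and their levels are set beside these genes for that reason. Ctrlm replicates 5 and 6 had hepatocyte sums of 77.3 and 82.1 CPM, within the range of the other groups, and held 5.27 and 13.6 CPM of Col6a6 and 2.30 and 1.09 CPM of Col19a1. The cKOm replicate with a sum of 453 CPM held 0.147 CPM of Col6a6 and 0.0978 CPM of Col19a1. With the 5 kidneys left out, which kept only replicates 5 and 6 of Ctrlm, the log2 fold changes were -6.07 and -3.81 (edgeR adjusted p = 3.8e-05 and 0.0416). The part of hepatocyte RNA in these differences was not tested.

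Col6a4 was the 1 of the 3 genes that was not low in females without the deletion. It ranged from 0.476 to 2.17 CPM in Ctrlm (median 0.846) and from 0.0457 to 0.469 in cKOm kidneys (median 0.160), on 129 and 27 reads. In Ctrlf kidneys it ranged from 0.476 to 1.55 CPM (median 0.831), and in cKOf kidneys from 0.239 to 0.630 CPM (median 0.344). The male groups did not overlap, although the highest cKOm and the lowest Ctrlm kidney nearly met, and the female groups overlapped. The log2 fold change was -2.28 ± 0.51 in males (SE, edgeR adjusted p = 0.00584) and -1.27 ± 0.48 in females (adjusted p = 0.154). The male adjusted p was 0.0775 with hepatocyte markers as a covariate and 0.319 without the 5 kidneys, where the log2 fold change was -1.58. Col6a5, the gene between Col6a6 and Col6a4 on chromosome 9, did not share the drop, with 98 reads in Ctrlm and 88 in cKOm kidneys (log2 fold change -0.15 ± 0.51, adjusted p = 0.934). The 3 genes lie in tandem on the minus strand, 27917 and 28810 bases apart. Of the possible 50-base stretches of Col6a6 transcripts, 3.54% are shared with other genes, most of them with Col6a5, so reads of these 2 genes may not be fully separable there, and none of those of Col6a4 or Col19a1 is shared.

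Col8a1, a short-chain collagen of vessels and mesangium, was higher in cKOm. It ranged from 6.72 to 9.23 CPM in Ctrlm (median 8.21) and from 10.6 to 16.3 in cKOm kidneys (median 13.3). Ctrlf kidneys ranged from 5.91 to 15.2 CPM (median 12.6) and cKOf kidneys from 12.1 to 18.2 (median 13.7), so the male groups were apart and the female groups overlapped. The log2 fold change was 0.72 ± 0.17 in males (SE, edgeR adjusted p = 0.00854) and 0.29 ± 0.17 in females (adjusted p = 0.433). Its male adjusted p was 0.113 with the hepatocyte covariate and 0.131 without the 5 kidneys, at a log2 fold change of 0.63 and 0.83.

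Among type IV chains, Col4a5, whose loss causes X-linked Alport syndrome, passed with the smallest margin. It ranged from 26.9 to 34.3 CPM in Ctrlm (median 29.6) and from 33.4 to 43.4 in cKOm kidneys (median 36.9), with 1 cKOm kidney below the highest Ctrlm kidney. In females it ranged from 24.8 to 41.5 CPM in Ctrlf and from 28.6 to 38.8 in cKOf kidneys. The log2 fold change was 0.35 ± 0.10 in males (SE, edgeR adjusted p = 0.0456) and 0.20 ± 0.10 in females (adjusted p = 0.371). The male call was lost under 8 of 11 alternative settings and in 18 of 24 fits that left out 1 kidney, with the log2 fold change between 0.24 and 0.41 throughout.

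**Figure D2:**
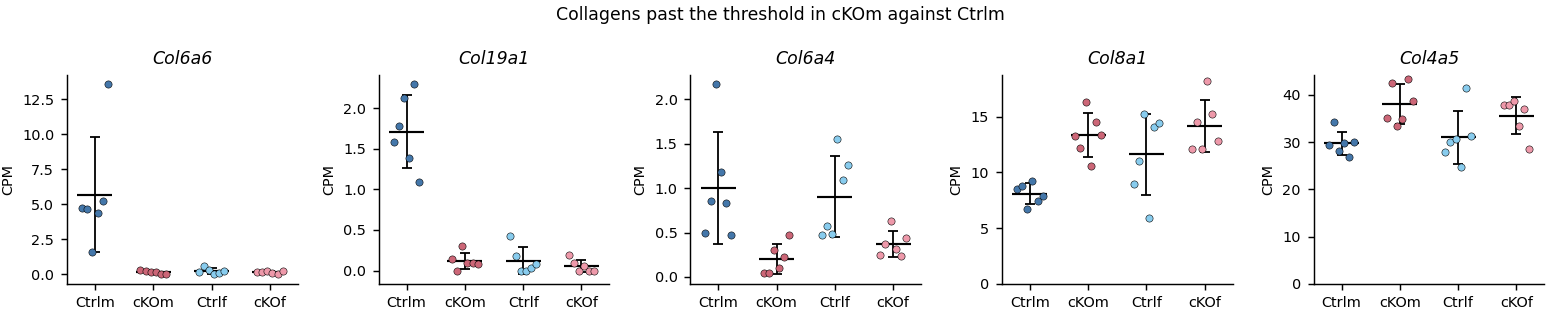
CPM of the 5 collagens past the threshold in males, 1 point per kidney and 6 per group, with the line and bars giving mean ± SD. In Ctrlm, Col6a6 reaches 13.6 CPM and Col19a1 2.30 CPM, and the other 3 groups stay below 0.6 CPM for both, while cKOm lies above Ctrlm for Col8a1.

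The remaining type IV chains did not pass the threshold. The log2 fold change in males was -0.22 ± 0.13 for Col4a1, -0.19 ± 0.13 for Col4a2, -0.03 ± 0.12 for Col4a3, -0.06 ± 0.09 for Col4a4 and 0.15 ± 0.31 for Col4a6 (SE). With no detected difference, the 95% intervals still allow a fall of Col4a1 to -0.48 and of Col4a3 to -0.27 on the log2 scale. Col4a3 reached 5.58 ± 0.87 times the level of Col4a5 per length in cKOm, against 7.25 ± 1.21 times in Ctrlm kidneys (mean ± SD, n = 6), a ratio that was not tested. Podocytes are among the cells that make Col4a3, Col4a4 and Col4a5. Podocyte markers summed to 459 to 571 CPM in Ctrlm and 548 to 575 in cKOm kidneys, and none of the 7 passed in males. Their part in the result was not tested.

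Among fibrillar collagens none of 8 passed in males. Col1a2 ranged from 37.3 to 45.8 CPM in Ctrlm and from 27.1 to 35.9 in cKOm kidneys without overlap, with a log2 fold change of -0.41 ± 0.12 (SE, edgeR adjusted p = 0.0553). Its partner in type I collagen, Col1a1, was 20.7 ± 4.93 CPM in Ctrlm and 14.9 ± 3.79 in cKOm kidneys (mean ± SD, n = 6, adjusted p = 0.347), and Col3a1 was 36.3 ± 6.76 and 29.2 ± 4.02 CPM (adjusted p = 0.299). A pair of fibrillar chains stood on the other side. Col5a2, which regulates the width of fibrils, had 28.9 ± 4.07 CPM in Ctrlm and 38.9 ± 5.38 in cKOm kidneys (adjusted p = 0.0597), and Col27a1 had 83.2 ± 13.6 and 121 ± 30.2 CPM (adjusted p = 0.0593). Adjusted within males alone, Col1a2, Col5a2 and Col27a1 all passed. The 10 fibroblast and mural markers summed to 346 to 455 CPM in Ctrlm (median 394) and 349 to 424 in cKOm kidneys (median 368). The median log2 fold change of the list was -0.13, beside 0.01 for all tested genes. Against that direction, 1 of the markers, Cspg4, which marks pericytes, was called higher in cKOm (log2 fold change 0.55 ± 0.10, edgeR adjusted p = 0.00105). Their part in the result was not tested.

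**Figure D3:**
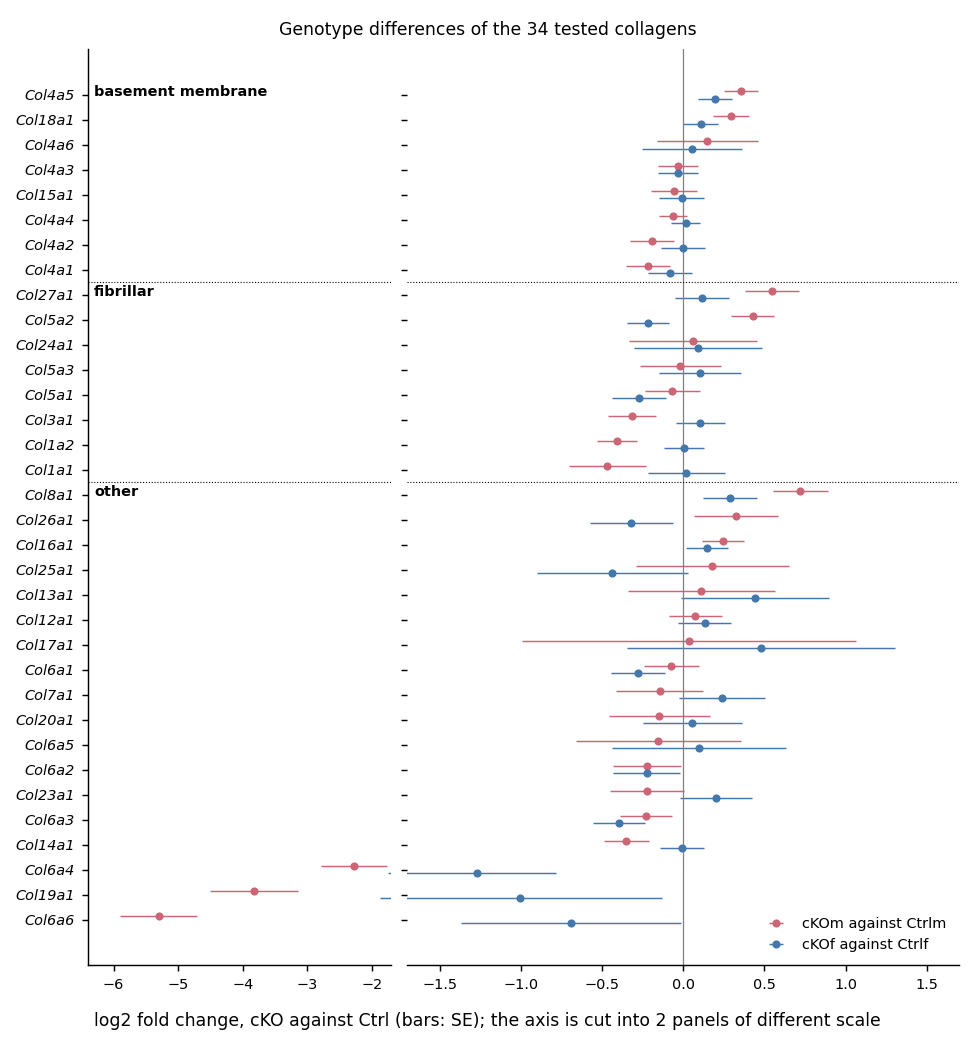
Log2 fold change of cKO against Ctrl kidneys for the 34 tested collagens in males and females, with bars of 1 SE and classes separated by dotted lines. The horizontal axis is cut into 2 panels of different scale, and Col6a6 at -5.30, Col19a1 at -3.82 and Col6a4 at -2.28 in males lie in the left panel.

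In females no collagen passed the threshold, beside 0.851% of all tested genes, and 2 of 34 had an unadjusted p under 0.05, Col6a4 and Col6a3. DESeq2 and limma-voom also called none. No collagen was without overlap between 6 cKOf and 6 Ctrlf kidneys, beside 0.559% of all genes. Col6a3, the third chain of the common type VI trimer, had 41.9 ± 11.6 CPM in Ctrlf and 31.9 ± 4.62 in cKOf kidneys (mean ± SD, n = 6, log2 fold change -0.40 ± 0.16, adjusted p = 0.185). It was called without Ctrlf replicate 1 (log2 fold change -0.53, adjusted p = 0.0105). Median log2 fold changes in females were 0.01 for basement membrane, 0.05 for fibrillar and 0.02 for other collagens.

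The interaction of genotype and sex was past the threshold for 1 collagen, Col6a6, beside 2.31% of all tested genes. Col6a6 was already near the floor in Ctrlf kidneys (median 0.225 CPM, beside 4.68 in Ctrlm), so a fall in females could hardly be measured. The authors proposed incomplete excision in cKOf mice, and the part of excision in differences between the sexes was not tested. Col5a2 was next, with 0.64 ± 0.19 on the log2 scale (SE, edgeR adjusted p = 0.0661), with means of 28.9 CPM in Ctrlm and 38.9 in cKOm, and of 52.4 in Ctrlf and 45.1 in cKOf kidneys. The number called was 2 without Ctrlm replicate 6, Ctrlf replicate 2 or cKOf replicate 5, each of which adds Col5a2, and 2 without Ctrlf replicate 4, which adds Col1a2.

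Collagens also differed between control males and females, a comparison that uses the same control kidneys as those above. Past the threshold were 6 of 34, beside 16.8% of all tested genes. Col6a6 (log2 difference, male minus female, 4.59 ± 0.56, SE) and Col19a1 (3.81 ± 0.68) were higher in Ctrlm. Col5a2 (-0.86 ± 0.13), Col6a3 (-0.63 ± 0.16), Col8a1 (-0.52 ± 0.17) and Col6a1 (-0.50 ± 0.17) were higher in Ctrlf. Col5a2 had 25.0 to 34.9 CPM in Ctrlm and 41.3 to 70.1 in Ctrlf kidneys without overlap (edgeR adjusted p = 2.2e-05). The calls of Col6a1 and Col8a1 were each lost under 6 of 10 alternative settings. Among these were limma-voom and the fit without the 5 hepatocyte-rich kidneys (edgeR adjusted p = 0.233 and 0.179). With 1 kidney left out, the call of Col6a1 was lost in 8 of 24 fits and that of Col8a1 in 6. Podocyte markers were lower in Ctrlm than in Ctrlf for 6 of 7 genes, and 9 of 10 hepatocyte markers were higher in Ctrlm. Also lower in Ctrlm were 4 of 6 thick limb and distal markers (Scnn1g, Slc12a3, Umod and Slc12a1), 2 of 7 endothelial markers (Ehd3 and Tek) and, of 10 fibroblast and mural markers, Cspg4. Of 6 proximal tubule markers, 2 were lower and 1 higher, and Wt1 was the 1 mesothelial marker that was lower. Their part in these differences was not tested.

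**Figure D4:**
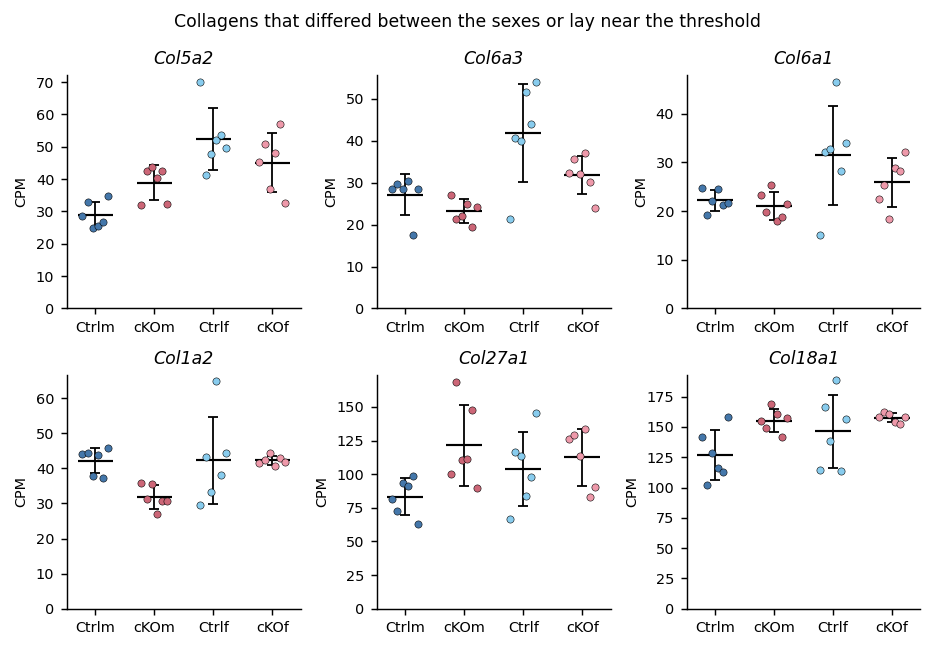
CPM of 6 further collagens, 1 point per kidney and 6 per group, with the line and bars giving mean ± SD. Col5a2 runs from 25.0 to 34.9 CPM in Ctrlm and from 41.3 to 70.1 in Ctrlf, and Col1a2 from 27.1 to 35.9 CPM in cKOm, below the 37.3 to 45.8 of Ctrlm.

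Between cKOm and cKOf kidneys 1 of 34 collagens passed, beside 8.14% of all tested genes. Col1a2 ranged from 27.1 to 35.9 CPM in cKOm and from 40.7 to 44.2 in cKOf kidneys without overlap (log2 difference -0.41 ± 0.12, SE, edgeR adjusted p = 0.037). Of the 10 fibroblast and mural markers, Vim, Notch3 and Rgs5 were lower in cKOm, and their sum was 349 to 424 CPM in cKOm and 420 to 481 in cKOf kidneys. With these markers as a covariate the log2 difference of Col1a2 was -0.10 (edgeR adjusted p = 0.819). Over all tested genes, calls fell from 1310 to 485 in that fit. The marker levels barely overlapped between cKOm and cKOf, so the part of these cells and that of sex cannot be told apart. Col6a6, Col19a1, Col5a2, Col6a3, Col8a1 and Col6a1, the 6 collagens called in controls, gave no call here. For Col6a6 the means were 0.142 CPM in cKOm and 0.143 in cKOf kidneys. The count fell to 0 without cKOm replicate 2, 4, 5 or 6 and without cKOf replicate 1, 2, 3 or 5, it was 2 without Ctrlm replicate 5 or Ctrlf replicate 1, and without cKOf replicate 6 Col6a3 was called in place of Col1a2.

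Chains of the same collagen type, and Col1a1 with Col3a1, whose types meet in mixed fibrils, were then compared kidney by kidney, as deviations of log2 CPM from the mean of each group, over 9 pairs. No pair outside these 9 was tested, so a close pair cannot be called particular to partner chains or neighboring genes. In Ctrlf replicates 1 and 4, for example, Col4a1 deviated by -0.38 and 0.48. Col18a1, which is not its partner, deviated by -0.33 and 0.39 in the same kidneys. Col4a1 and Col4a2, whose genes lie head to head on chromosome 8, moved together most closely (Pearson's r = 0.92, Spearman's rho = 0.92, n = 24, permutation p = 1e-05 for both, the smallest 100000 permutations can give, adjusted p = 4.5e-05). Without the 2 kidneys farthest from the median, r was 0.89, and within groups it ran from 0.75 to 0.97. Col4a3 and Col4a4, also head to head with 71 bases between them, had r = 0.86 and rho = 0.88 (permutation p = 1e-05 for both, adjusted p = 4.5e-05), with r = 0.85 without the 2 farthest kidneys. Their levels per length did not stand at 1 to 1, since Col4a3 was 1.50 ± 0.12 times Col4a4 in Ctrlm and 1.54 ± 0.12 times in cKOm kidneys (mean ± SD, n = 6), whereas Col4a1 was 0.96 ± 0.06 and 0.94 ± 0.08 times Col4a2. Col4a4 and Col4a5 did not pass (r = 0.42, permutation p = 0.057, adjusted p = 0.082; rho = 0.33, permutation p = 0.13), and r was 0.04 without 2 kidneys.

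Among the interstitial pairs, Col1a1 went with Col3a1 (r = 0.79, permutation p = 7e-05, adjusted p = 0.00021; rho = 0.80, permutation p = 0.00015) and, less closely by value, with Col1a2 (r = 0.59, permutation p = 0.012, adjusted p = 0.022; rho = 0.60, permutation p = 0.0081). Without Ctrlf replicate 4 and cKOf replicate 6 these r were 0.73 and 0.45. Within groups, r ran from 0.42 to 0.88 for Col1a1 with Col3a1. For Col1a1 with Col1a2 it ran from -0.30 in cKOf to 0.86 in Ctrlf. Col6a1 went with Col6a2 (r = 0.76, permutation p = 0.00075, adjusted p = 0.0017; rho = 0.56, permutation p = 0.0075), with 0.52 without Ctrlf replicates 1 and 4. For Col6a1 and Col6a3 r was 0.56 (permutation p = 0.064, adjusted p = 0.082; rho = 0.34, permutation p = 0.14) and rested on those 2 kidneys, since it was 0.04 without them. Col5a1 and Col5a2 had r = -0.35 (permutation p = 0.12, adjusted p = 0.13; rho = -0.30, permutation p = 0.18). Col8a1 and Col8a2 had r = -0.17 (permutation p = 0.37; rho = 0.01, permutation p = 0.95), where Col8a2 had at most 13 reads in a kidney. For the 5 pairs with an adjusted p under 0.05 for r, the adjusted p for rho was at most 0.015. Within groups, r of Col5a1 and Col5a2 ran from -0.85 in cKOm to 0.84 in cKOf.

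**Figure D5:**
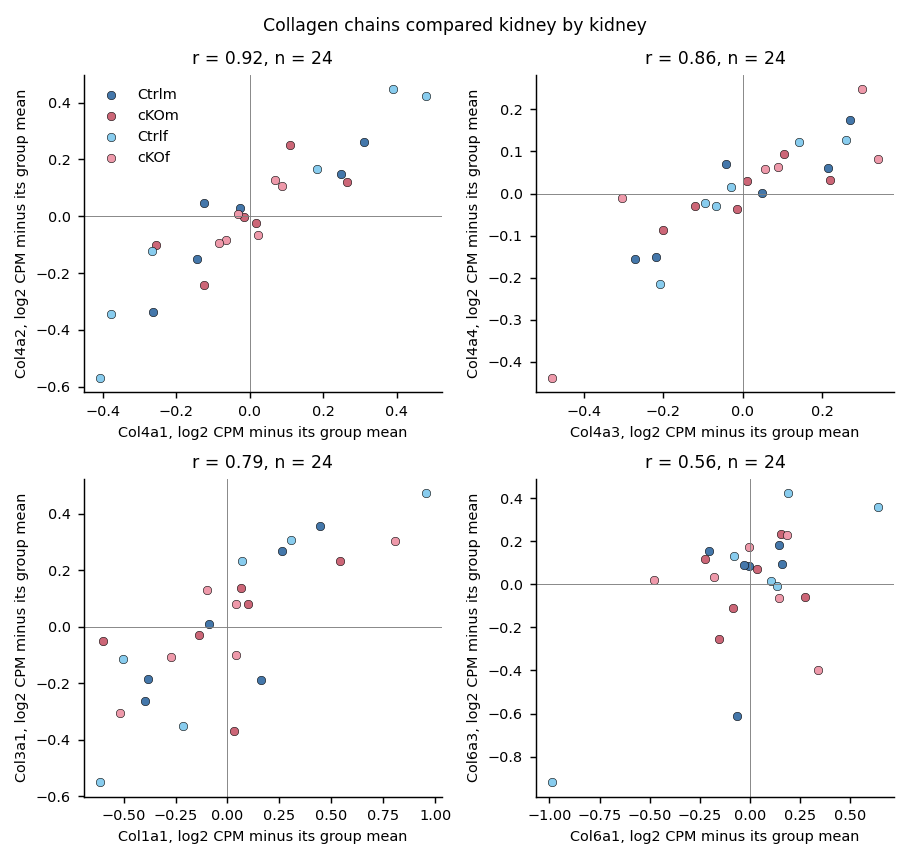
Deviation of each of 24 kidneys from its group mean in log2 CPM, for 4 pairs of collagen chains. Points follow a line for Col4a1 with Col4a2 (r = 0.92) and Col4a3 with Col4a4 (r = 0.86), and in the panel of Col6a1 with Col6a3 (r = 0.56) Ctrlf replicate 1 stands alone at the lower left.

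Genes that make, process and remove collagen were read beside the chains, from lists chosen from general knowledge. Of 23 tested synthesis genes, 2 were higher and 2 lower in cKOm, beside 4.14% higher and 4.9% lower of all tested genes. P3h2, a prolyl 3-hydroxylase that acts on type IV collagen, ranged from 117 to 166 CPM in Ctrlm and from 190 to 223 in cKOm kidneys without overlap (log2 fold change 0.61 ± 0.10, SE, edgeR adjusted p = 0.0001). In Ctrlf it ranged from 243 to 304 and in cKOf from 186 to 279 CPM, and the interaction passed (0.74 ± 0.13, adjusted p = 0.00152). Colgalt2, which adds galactose to hydroxylysine, was also higher (0.35 ± 0.10, adjusted p = 0.0378), whereas Plod2, a lysyl hydroxylase (-0.31 ± 0.09, adjusted p = 0.0312), and P4hb, a subunit of the prolyl 4-hydroxylase (-0.27 ± 0.08, adjusted p = 0.0351), were lower. Of 14 tested processing genes 1 was higher, Pcolce2, an enhancer of procollagen cleavage (0.71 ± 0.20, adjusted p = 0.0301), beside the same 4.14% of all genes.

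Of 11 tested genes for degradation and uptake, 2 were lower in cKOm, beside 4.9% of all tested genes. Pepd, the prolidase that splits the last proline dipeptides of collagen, ranged from 177 to 238 CPM in Ctrlm and from 105 to 135 in cKOm kidneys without overlap (log2 fold change -0.84 ± 0.09, SE, edgeR adjusted p = 2.1e-07). Its interaction passed as well (-0.66 ± 0.12, adjusted p = 0.00171), with 126 to 153 CPM in Ctrlf and 109 to 144 in cKOf kidneys. Mmp13, an interstitial collagenase, ranged from 2.45 to 4.86 CPM in Ctrlm and from 1.34 to 2.10 in cKOm kidneys without overlap (-1.29 ± 0.29, adjusted p = 0.00578). None passed among 7 collagen receptors, 17 other matrix genes or 15 TGF-beta genes, and none in any of these lists in females by edgeR.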

How the data were processed

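Whole-kidney RNA libraries of 24 mice were made by the authors with stranded mRNA reagents, and per the labels, reads were trimmed with cutadapt 1.8, aligned to GRCm38 with STAR 2.5.3a and counted with HTSeq 0.9.1. The deposited values are whole counts per gene without normalization, and 34.0 to 41.5% of the reads in the files fell on lines that name no gene and were left out. Symbols, positions and lengths came from GENCODE M21, which held 55154 of the 55335 identifiers, and the release used by the authors may differ. The tests used edgeR 4.0.16 under R 4.3.3 (TMM, 1 CPM in at least 1 kidney, 1 model for the 4 groups, quasi-likelihood tests). P values were adjusted by Benjamini-Hochberg over male and female tests together, and alone for each other comparison, at 0.05. Log2 CPM used a prior count of 2, and single values were compared by two-sided exact permutation tests over 924 arrangements. Promoter sequences came from RefSeq. Figures used Python 3.11.15 and matplotlib 3.10.9.

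The members, classes and lists were chosen with earlier results of these data known. Named are collagens past the threshold in any of 5 comparisons, type IV chains, the first 10 by RPKM, Col1a1, Col1a2, Col3a1, Pex5 and, from other lists, called genes. A result that meets this rule is not reported here. Col6a2, Col5a1 and Col8a2 belong to the chain pairs, and Col6a5 was named after its values were seen. Ctage5 was dropped from a list and Ctgf was searched as Ccn2. On simulated data the male test recovered 164 of 200 changed genes with 2 false calls over 15720 genes. The changed genes had a mean above 1 CPM and a true change of 1 on the log2 scale, up or down. Smaller changes and genes at lower levels, as for many collagens here, were not simulated. Alternatives were limma-voom 3.58.1, DESeq2 1.42.0, RLE normalization, other filters, only the groups compared, a replicate block, adjustment by sex, marker covariates, other lengths and each kidney left out. Leaving out the 5 kidneys rich in hepatocyte markers was added after the data were seen.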

Additional observations from a re-analysis of the deposited data

Results flagged for a closer look

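With 80 groups of 6 kidneys examined for 1 kidney far from the others, 4 were found, and chance alone gives about 1 in 20. Col14a1 was 74.6 CPM in Ctrlf replicate 4 and 41.2 to 53.6 CPM in the other Ctrlf kidneys. Col1a1 was 34.3 CPM in cKOf replicate 6 and 13.6 to 20.1 CPM in the others. Col6a3 was 17.5 CPM in Ctrlm replicate 5 and 28.4 to 30.4 CPM in the others. Col6a6 was 13.6 CPM in Ctrlm replicate 6 and 1.58 to 5.27 CPM in the others. The change of Col6a6 with genotype differed between the sexes by -4.61 on the log2 scale, by the test of the interaction (edgeR adjusted p = 0.00542).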

How the results depend on the processing

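The male count of 5 collagens became 8 with DESeq2, with only the groups compared and with the male tests adjusted alone, 3 with 1 CPM in 6 kidneys, where fewer genes were tested, and 2 with the hepatocyte covariate and 2 without the 5 hepatocyte-rich kidneys. The female count of 0 became 2 with the fibroblast and mural covariate (Col5a1 and Col6a3). The interaction count of 1 became 0 with limma-voom and 2 with DESeq2. The count for cKOm against cKOf of 1 became 2 with DESeq2, 3 with only the groups compared, and 0 with the replicate block, with the fibroblast and mural covariate and without the 5 kidneys. The cause was not tested for these. With each kidney left out in turn the counts ran from 4 to 8 in males, 0 to 1 in females, 1 to 2 for the interaction, 4 to 8 for Ctrlm against Ctrlf and 0 to 2 for cKOm against cKOf. The medians of the 3 classes in males ran from -0.09 to -0.01, -0.20 to 0.02 and -0.20 to -0.11, and in females from -0.03 to 0.07, -0.03 to 0.11 and -0.17 to 0.04, so 0 lay within the range of every median except those of basement membrane and other collagens in males. A shared replicate number does not mark a shared mouse, and deviations of such kidneys did not pair (correlations from -0.20 to 0.12). With the replicate block 4 collagens were called in males, 0 in females, 1 for the interaction and 4 for Ctrlm against Ctrlf. Over all settings and kidneys left out, no result for a single gene reversed, a call was lost 69 times in all, over 7 of the 13 called results, and a call was gained 37 times, over 9 results. Levels per length of 8 genes, Col1a2 and Col27a1 among them, moved by over 1 SD with the longest transcript as the length. Depth limits Col6a6 and Col19a1 outside Ctrlm, with at most 13 and 9 reads in a kidney, and Col6a4 in cKOm, with 1 to 12 reads.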
